A study of Mus musculus with 12 samples.

Results

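Heat shock proteins and their partners were taken as the protein-coding genes whose GENCODE M21 symbols start with Hspa, Hspb, Hsp90, Hspd1, Hspe1, Hsph1, Dnaja, Dnajb or Dnajc, together with Tcp1 and Cct2 to Cct8.
The rule found 82 of the 37574 genes counted, and it uses symbols alone and no measured value.
They comprised 11 HSP70 genes, 3 HSP110 genes, 3 HSP90 genes, the 2 genes of the mitochondrial chaperonin, 8 genes of the cytosolic chaperonin TRiC, 8 genes grouped by symbol as small heat shock proteins, and 4 Dnaja, 13 Dnajb and 28 Dnajc genes.
Hspbp1 and Hspbap1, a further 2, share only the start of their symbols with the small heat shock proteins.
Cct6a was not classed as protein-coding in that annotation and was therefore no member.
Of the 82 genes, 69 had enough counts to be tested, among 15706 genes tested in all.

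RNA was sequenced from mouse stem and progenitor cells with or without MLL-ENL, a leukaemia fusion of the MLL (Kmt2a) and ENL (Mllt1) proteins.
There were 3 libraries each of MLL-ENL preGM, WT preGM, MLL-ENL HSC and WT HSC.
The preGM, which are progenitors of the granulocyte and macrophage lineage, had been sorted as ckit+ cells lacking lineage markers (Lin-) and Sca1, CD150, CD105, CD41 and CD16/32, and the haematopoietic stem cells (HSC) as Lin- cells with Sca1, ckit and CD150 but not CD48.
MLL-ENL libraries came from the strain labelled Col1a1-MLL/ENL and WT libraries from C57bl/6 WT mice.
All 12 cultures received 1 µg/ml doxycycline for 48 h in OptiMEM.
This medium also held 10% FCS, 10 to 50 ng/ml SCF, and IL3 and G-CSF, each at 5 ng/ml.
As no MLL-ENL culture lacked doxycycline, the fusion and any other difference between the strains cannot be told apart.
Whether replicates came from separate mice is not stated in the labels.
The p-values therefore reflect the variation among libraries alone, which may be technical.

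Chaperones bind unfolded or newly made proteins and help them to fold without clumping.
HSP70 proteins bind and release their clients in cycles driven by ATP, J-domain proteins of the Dnaja, Dnajb and Dnajc groups deliver clients and start the cycle, and HSP110 proteins end it by exchanging nucleotide.
HSP90 proteins mature signalling proteins, whereas TRiC in the cytosol and Hspd1 with its cap Hspe1 in mitochondria enclose their clients, TRiC being known above all for actin and tubulin.
Heat shock factor induces a subset of these genes through heat shock elements, and the unfolded protein response induces those of the endoplasmic reticulum.

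Promoters are shown with these elements in capitals, from RefSeq (GRCm38.p6), each written 5' to 3' on the gene's own strand. Hspe1, Hspa5 and Hsp90b1 are examples picked from members that hold an element and rose in preGM of both strains. The heat-inducible pair Hspa1a and Hspa1b is added.
The Hspe1 window (chr1:55088053-55088082, plus strand) holds joined heat shock units 89 to 72 bases before the gene's start and lies in an annotated exon of Hspd1, which is transcribed in the opposite direction.
The windows of Hspa5 (chr2:34772019-34772048, plus strand) and Hsp90b1 (chr10:86705633-86705662 and chr10:86705528-86705557, minus strand) hold endoplasmic reticulum stress elements, the second of Hsp90b1 as its reverse complement.
The Hspa5 window too lies in an annotated exon, and the others do not.
For Hspa1a (chr17:34972157-34972406, minus strand) and Hspa1b (chr17:34959239-34959488, minus strand) the whole 250 bases before the start are given, with 1 heat shock element in capitals.
Hspe1: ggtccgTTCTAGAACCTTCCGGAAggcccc
Hspa5: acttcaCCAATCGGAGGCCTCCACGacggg
Hsp90b1: acaagcCCAATCGCAAGGAGCCACGcttcg
Hsp90b1: agagtgCGTGGTGAGGCACGATTGGtgagt
Hspa1a: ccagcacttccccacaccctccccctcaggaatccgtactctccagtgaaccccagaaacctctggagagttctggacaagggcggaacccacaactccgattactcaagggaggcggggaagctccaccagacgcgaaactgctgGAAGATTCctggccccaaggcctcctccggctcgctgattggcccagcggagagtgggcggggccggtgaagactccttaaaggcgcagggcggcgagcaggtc
Hspa1b: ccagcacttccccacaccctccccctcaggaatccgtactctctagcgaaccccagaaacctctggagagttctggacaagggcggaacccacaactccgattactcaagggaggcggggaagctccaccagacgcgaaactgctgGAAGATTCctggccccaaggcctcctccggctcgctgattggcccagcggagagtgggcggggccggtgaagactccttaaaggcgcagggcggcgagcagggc

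These 250-base stretches were compared across genes, on both strands, for the 67 members with an entry among 27025 genes.
The heat shock unit GAANNTTC, which is its own reverse complement, was found in 12 of the 67 (17.9%) and in 7.73% of all genes, and TTCNNGAA in 7 (10.4%) and in 8.11% of all genes.
Joined units (GAANNTTC followed by NNGAA, or TTCNNGAA followed by NNTTC, each of which includes both shorter forms) were found in Dnajb6, Hspd1 and Hspe1, or 4.48% of members, against 0.514% of all genes.
The endoplasmic reticulum stress element (CCAAT, 9 bases of any kind and CCACG, or the reverse complement) was found in Dnajc3, Hsp90b1 and Hspa5, also 4.48% of members, against 0.13% of all genes.
The stretches of Hspa1a and Hspa1b were identical at 247 of 250 bases.
Matches and rises did not go together throughout. Dnaja4, with GAANNTTC, and Dnajb4, with TTCNNGAA, fell in preGM of both strains. Hspa8, Hsp90aa1 and Hsp90ab1 rose in both and were not among the matches. Most of these had no entry and were not searched, so their lack of a match shows nothing. A match describes letters only and shows no binding.

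Gene counts summed to 38465777 to 50325667 per library in MLL-ENL preGM and 34741282 to 44492809 in WT preGM, against 18980308 to 23453049 in MLL-ENL HSC and 14529282 to 18157703 in WT HSC.
Levels are given as CPM, the counts scaled to a common library size with TMM factors, with replicates 1, 2 and 3 in this order.
Differences are given as log2 fold changes from edgeR's quasi-likelihood test with its SE and a Benjamini-Hochberg adjusted p over all genes tested.
A gene is said to have risen or fallen where the adjusted p was below 0.05.
MLL-ENL preGM replicate 1 and WT preGM replicate 2 stood apart in the deviation of each gene from the mean of the group's other libraries (log2). The SD of this deviation over the tested members was 0.665 and 0.832 in them, and 0.26 to 0.469 in the other 10 libraries. Over all genes tested it was 0.734 and 0.702, and 0.376 to 0.572 in the other 10.
Counting did not use strand, and Tcp1, Hsp90b1 and Dnaja1 share 18.2%, 15.7% and 10.9% of their exon bases with other genes.
Most results that rest on these 2 libraries are given with all 12 and with the other 10 libraries, in which 70 members were tested among 15811 genes. Each preGM group then holds 2 libraries. As the members' own values are among those that set the 2 libraries apart, the results with 10 libraries are no independent support.
In MLL-ENL preGM replicate 1 the members' deviations correlated with the log2 length of their exons (r = 0.412 over 69 members, and 0.361 over all genes tested).
Marker genes separated the cell types as labelled: 8 granulocyte-macrophage precursor markers summed to 12696 to 16159 CPM in MLL-ENL preGM and 27108 to 29932 in WT preGM, against 238 to 274 in MLL-ENL HSC and 291 to 429.6 in WT HSC.
An HSC list, also of 8 markers, summed to 82.6 to 212 CPM in MLL-ENL preGM and 38.2 to 45.8 in WT preGM, against 794 to 861 in MLL-ENL HSC and 571 to 642 in WT HSC.
The genes that the fusion is made of, Kmt2a and Mllt1, did not pass the test between strains in either cell type, and reads across the fusion were not counted here.

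The chaperone genes as a group had a higher summed level after TMM scaling in preGM than in HSC, in both strains.
Summed over all 82 members, the level was 26746 ± 1100.1 CPM in MLL-ENL preGM and 26503 ± 966 in WT preGM, against 10092 ± 406 in MLL-ENL HSC and 12757 ± 513 in WT HSC (SD, n = 3 each). The TMM factors were 1.06, 0.80 and 0.84 in MLL-ENL preGM, against 1.35, 1.32 and 1.34 in MLL-ENL HSC. They were 0.753, 0.618 and 0.791 in WT preGM, against 1.17, 1.22 and 1.12 in WT HSC. Without these factors the gap in the sums is smaller in both strains, and WT preGM replicate 2, with the lowest factor, comes nearest to HSC.
With MLL-ENL 30 of the 69 tested members rose in preGM relative to HSC, or 43.5%, against 20.4% of all genes tested, and 10 fell, or 14.5%, against 21.1%.
In WT cells 27 rose, or 39.1%, against 18.4% of all genes, and 5 fell, or 7.25%, against 20.1%. The counts by family, compartment and list below are to be read beside these same shares of all genes.
Both comparisons, which share no library, called 17 members higher (56.7% of the 30 and 63.0% of the 27) and 5 lower (50.0% of the 10 and all of the 5), and no member was called in opposite directions.
Without the 2 libraries that stood apart, 35 of 70 rose and 12 fell with MLL-ENL (50.0% and 17.1%, beside 25.1% and 26.5% of all genes), and 39 rose and 10 fell in WT cells (55.7% and 14.3%, beside 25.6% and 25.3%). The median log2 fold change of the tested members was 0.63 with MLL-ENL and 0.54 in WT cells, beside 0.00 and -0.03 over all genes tested.
Scaling by library size alone moved the median of all genes by -0.56 with MLL-ENL and -0.70 in WT cells.
This left 15 members higher and 13 lower with MLL-ENL (21.7% and 18.8%, beside 7.75% and 35.1% of all genes).
It left 7 higher and 15 lower in WT cells (10.1% and 21.7%, beside 7.58% and 39.2%).
None of the 40 members called with MLL-ENL or the 32 in WT cells under TMM then changed sign, and the members' median stayed 0.62 and 0.60 above that of all genes.
Of the genes given below by library, that scaling ended the MLL-ENL calls of Hsp90aa1, Cct2, Dnaja1 and Hspbap1 (adjusted p 0.0622 to 0.0853), and the WT calls of Hspa8, Hsp90aa1, Hsp90ab1, Hspd1, Cct7, Cct8, Tcp1 and Hspbap1 (adjusted p 0.0595 to 0.988).
With MLL-ENL all preGM libraries were above all HSC libraries in 33 members and below in 12 (47.8% and 17.4%, beside 25.9% and 28.9% of all genes tested), and in WT cells in 29 and 7 (42.0% and 10.1%, beside 23.6% and 24.8%).
RNA came from bulk samples, so a change in the share of a cell type and a change in RNA per cell cannot be told apart.

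**Figure D1:**
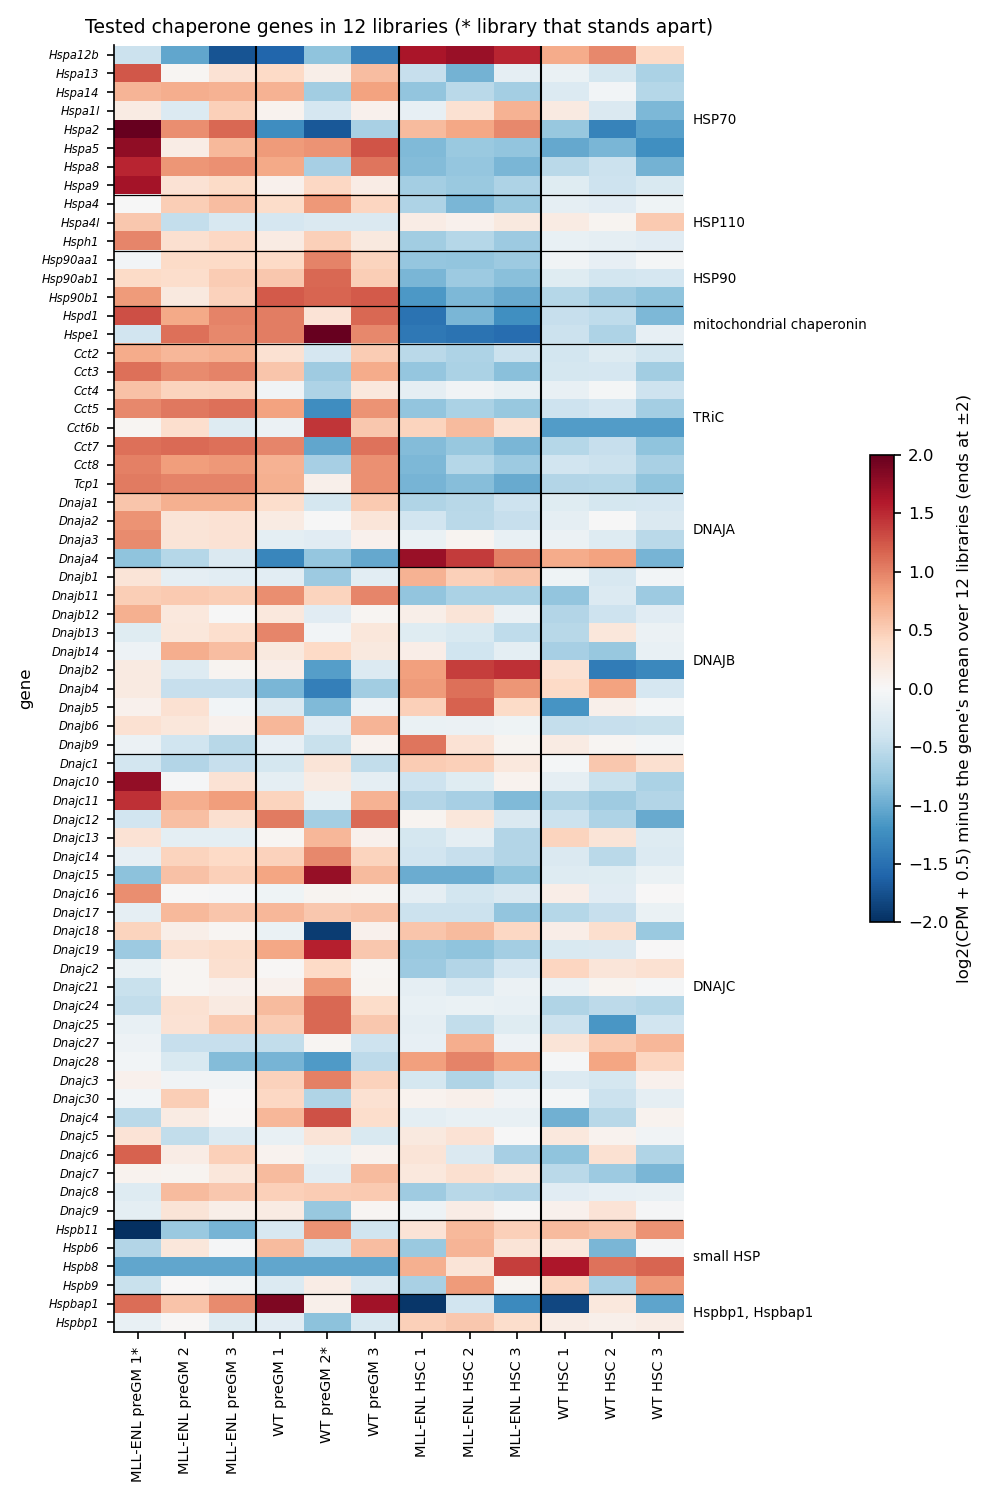
Heat map of the 69 tested members (rows, grouped by family) in the 12 libraries (columns, MLL-ENL preGM, WT preGM, MLL-ENL HSC and WT HSC from left to right), as log2(CPM + 0.5) minus the gene's mean over all libraries; asterisks mark the 2 libraries that stood apart. Most rows of the HSP90, mitochondrial chaperonin and TRiC families are high in the preGM columns and low in the HSC columns, and WT preGM replicate 2 is low for TRiC.

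Of the 8 HSP70 genes tested, Hspa5 of the endoplasmic reticulum, Hspa8 of the cytosol, Hspa9 of mitochondria, Hspa13 and Hspa14 rose in preGM of the MLL-ENL strain, and Hspa5 and Hspa8 rose in both strains.
Hspa5, which encodes BiP, the HSP70 of the endoplasmic reticulum, had 1906, 620.3 and 878 CPM in MLL-ENL preGM and 1005, 1037 and 1326 in WT preGM, against 302, 333 and 322 in MLL-ENL HSC and 273, 297 and 238 in WT HSC.
Every preGM library exceeded every HSC library, and MLL-ENL preGM replicate 1 was the highest of the 12.
Hspa5 rose by 1.83 ± 0.36 (SE, adjusted p = 0.000852) with MLL-ENL and by 2.06 ± 0.36 (SE, adjusted p = 0.000338) in WT cells. Both calls were kept with 10 libraries, but the size of the MLL-ENL rise with 12 drew on MLL-ENL preGM replicate 1.
Hspa8, the constitutive cytosolic HSP70, had 4076, 2622 and 2682 CPM in MLL-ENL preGM and 2396, 902 and 2982 in WT preGM, against 782, 829 and 759 in MLL-ENL HSC and 979, 1052 and 739 in WT HSC.
It was lowest among preGM in WT replicate 2, which overlapped the WT HSC libraries, while the MLL-ENL groups did not overlap.
Its rise was 1.98 ± 0.39 (SE, adjusted p = 0.00085) with MLL-ENL and 1.18 ± 0.38 (SE, adjusted p = 0.0213) in WT cells.
The WT rise no longer passed on leaving out replicate 1 or 3 of WT preGM or replicate 1 or 3 of WT HSC (adjusted p 0.0555 to 0.116). Nor did it pass with only the groups compared (adjusted p = 0.0782).
Hspa9, the mitochondrial HSP70, had 720.1, 276 and 294 CPM in MLL-ENL preGM and 239, 302 and 252 in WT preGM, against 141, 135 and 146 in MLL-ENL HSC and 192, 169 and 184 in WT HSC.
MLL-ENL preGM replicate 1 was more than 2-fold above the next library.
Hspa9 rose with MLL-ENL, by 1.61 ± 0.33 (SE, adjusted p = 0.00122), and in WT cells the difference was 0.54 ± 0.32 (SE, adjusted p = 0.198) with all 12 libraries and 0.44 ± 0.10 (SE, adjusted p = 0.00163) with 10, and it passed without MLL-ENL preGM replicate 1 alone (adjusted p = 0.0143). The MLL-ENL call of Hspa9 was kept with 10 libraries, but its size with 12 drew on that replicate. Over the 8 tested HSP70 genes the median with MLL-ENL was 1.25 with 12 libraries and 0.86 with 10. Hspa13, a microsomal HSP70, and Hspa14, which works at the ribosome, also rose with MLL-ENL, by 1.14 and 1.37, calls that were lost under library size alone (adjusted p = 0.213 and 0.0981) and, for Hspa13, without MLL-ENL HSC replicate 2 (0.051).
Hspa12b, a distant relative known from endothelial cells, ran the other way, with 1.41, 0.747 and 0.276 CPM in MLL-ENL preGM and 0.358, 0.978 and 0.484 in WT preGM, against 7.53, 8.0 and 6.90 in MLL-ENL HSC and 3.80, 4.53 and 2.89 in WT HSC.
All preGM libraries lay below all HSC libraries.
It fell by 3.17 ± 0.51 (SE, adjusted p = 0.000186) with MLL-ENL and by 2.66 ± 0.53 (SE, adjusted p = 0.000973) in WT cells.
Counted over the longest transcript alone, the WT difference of Hspa12b was -4.71.
In all, 5 of the 8 tested HSP70 genes rose and 1 fell with MLL-ENL, and 2 rose and 1 fell in WT cells, where 5 rose with 10 libraries.

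The 2 heat-inducible HSP70 genes were too low to be tested.
Hspa1a had 10, 0 and 8 counts in MLL-ENL preGM and 13, 12 and 8 in WT preGM, against 0 in all 6 HSC libraries.
Hspa1b had 7, 3 and 8 counts in MLL-ENL preGM and 13, 11 and 13 in WT preGM, against 0, 2 and 4 in MLL-ENL HSC and 0 in all 3 WT HSC libraries.
A count of 0 allows a level of up to 0.107 CPM over the MLL-ENL HSC libraries and 0.163 CPM over the WT HSC libraries (3 counts per library, counting error only).
Hspb1, a heat-inducible small heat shock protein, had 0, 2 and 1 counts in MLL-ENL preGM and 1, 0 and 0 in WT preGM, against 10, 1 and 16 in MLL-ENL HSC and 0 in all 3 WT HSC libraries.
None of these 3 genes had more than 16 counts in any library.
No source used here says how reads matching both Hspa1a and Hspa1b were counted.
The other 10 untested members were Hspa12a, Hspb2, Hspb3, Hspb7, Dnajb3, Dnajb7, Dnajb8, Dnajc5b, Dnajc5g and Dnajc22.

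All 3 HSP90 genes rose in preGM of both strains.
Hsp90ab1, the constitutive cytosolic form, was the highest member per kilobase of exon in every group, ranking 57 in MLL-ENL preGM and 76 in WT preGM, against 77 in MLL-ENL HSC and 76 in WT HSC, among 13089 protein-coding genes tested.
It had 4913, 4856 and 5402 CPM in MLL-ENL preGM and 5518, 8438 and 5311 in WT preGM, against 2000.4, 2288 and 2118 in MLL-ENL HSC and 3214, 2937 and 2985 in WT HSC.
Hsp90aa1, the stress-responsive cytosolic form, had 1089, 1479.8 and 1487 CPM in MLL-ENL preGM and 1488, 2256 and 1536 in WT preGM, against 662, 653 and 684 in MLL-ENL HSC and 1078, 1007 and 1099 in WT HSC.
Hsp90b1, the endoplasmic reticulum form GRP94, had 1198, 761 and 906 CPM in MLL-ENL preGM and 1551, 1489.6 and 1556 in WT preGM, against 297, 354 and 329 in MLL-ENL HSC and 445, 403 and 379 in WT HSC.
In each of these 3 genes every preGM library was above every HSC library of the same strain.
With MLL-ENL the rise was 1.24 ± 0.29 (SE, adjusted p = 0.00291) for Hsp90ab1, 1.02 ± 0.27 (SE, adjusted p = 0.00713) for Hsp90aa1 and 1.55 ± 0.26 (SE, adjusted p = 0.00027) for Hsp90b1.
In WT cells it was 1.08 ± 0.29 (SE, adjusted p = 0.00753) for Hsp90ab1, 0.73 ± 0.27 (SE, adjusted p = 0.0421) for Hsp90aa1 and 1.91 ± 0.26 (SE, adjusted p = 4.05e-05) for Hsp90b1.
The WT call of Hsp90aa1 was lost without any 1 of 10 libraries (adjusted p 0.0504 to 0.124), all but MLL-ENL preGM replicates 1 and 2. It was also lost with no filter on low counts (adjusted p = 0.0892), with the replicate number as a block (0.0675) and with only the groups compared (0.0529). Of the nucleotide exchange factors, Hsph1 had 125, 78.6 and 84.2 CPM in MLL-ENL preGM and 70.1, 87.3 and 71.6 in WT preGM, against 38.6, 41.9 and 37.8 in MLL-ENL HSC and 56.5, 55.6 and 53.6 in WT HSC.
It rose with MLL-ENL, by 1.28 ± 0.23 (SE, adjusted p = 0.000404), while the WT difference was 0.47 ± 0.22 (SE, adjusted p = 0.111) although the WT groups did not overlap.
The WT difference passed with DESeq2 (adjusted p = 0.045) and without MLL-ENL preGM replicate 1 alone (adjusted p = 0.0208).
Counted over its longest transcript alone, Hsph1 gave larger values, 1.96 with MLL-ENL (adjusted p = 0.00634) and 1.69 in WT cells (adjusted p = 0.0172).
Hspa4 rose in both strains, by 1.15 with MLL-ENL and 0.74 in WT cells, and Hspa4l passed in neither.
The WT call of Hspa4 was lost without any 1 of the 3 WT HSC replicates (adjusted p 0.0516 to 0.078) and under library size alone, where the difference was 0.02 (adjusted p = 0.945).

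The mitochondrial chaperonin showed the largest rises of any member with MLL-ENL.
Hspd1, the barrel subunit, had 1301, 903 and 1056 CPM in MLL-ENL preGM and 1075, 642 and 1173 in WT preGM, against 191, 281 and 227 in MLL-ENL HSC and 385, 374 and 285 in WT HSC.
Hspe1, its cap, had 709, 1975 and 1801 CPM in MLL-ENL preGM and 1889, 3673 and 1803 in WT preGM, against 343, 331 and 321 in MLL-ENL HSC and 685, 604 and 825 in WT HSC.
In both genes every preGM library exceeded every HSC library of its strain, and the 2 libraries that stood apart were the extremes of the preGM: Hspe1 was lowest in MLL-ENL replicate 1 and highest in WT replicate 2, and Hspd1 the reverse.
Hspd1 rose by 2.22 ± 0.31 (SE, adjusted p = 4.77e-05) with MLL-ENL and 1.47 ± 0.30 (SE, adjusted p = 0.00125) in WT cells.
Hspe1, whose promoter holds the joined heat shock units printed above, rose by 2.17 ± 0.39 (SE, adjusted p = 0.000457) with MLL-ENL and 1.80 ± 0.39 (SE, adjusted p = 0.00179) in WT cells.
No processed pseudogene named after Hspd1 or Hspe1 had more than 53 counts in a library.

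TRiC genes rose together in preGM of the MLL-ENL strain, 6 of 8 passing the test. In WT cells 4 of 8 rose, or 7 of 8 without the libraries that stood apart. The 4 were Tcp1, Cct7, Cct8 and Cct6b, the last at the edge of detection, as given below.
Cct5 had 1986, 2119 and 2192 CPM in MLL-ENL preGM and 1769.5, 429.7 and 1887 in WT preGM, against 589.6, 657 and 604 in MLL-ENL HSC and 765, 809 and 631 in WT HSC.
Cct7 had 1311, 1349 and 1318 CPM in MLL-ENL preGM and 1209.7, 299 and 1306 in WT preGM, against 337, 361 and 325 in MLL-ENL HSC and 411, 446 and 352 in WT HSC.
Cct8 had 1273, 1130.1 and 1155 CPM in MLL-ENL preGM and 1023, 396 and 1183 in WT preGM, against 336, 423 and 380.3 in MLL-ENL HSC and 483, 467 and 400.1 in WT HSC.
In all 3 genes WT preGM replicate 2 was far below replicates 1 and 3, and within or below the range of the HSC libraries.
Tcp1, the founding subunit, had 1288, 1247 and 1249 CPM in MLL-ENL preGM and 1031, 676 and 1186 in WT preGM, against 329, 349.5 and 314 in MLL-ENL HSC and 417, 423 and 361 in WT HSC.
Cct3 had 887, 799 and 822 CPM in MLL-ENL preGM and 605, 252 and 694 in WT preGM, against 243, 266 and 232 in MLL-ENL HSC and 323, 326 and 255 in WT HSC.
The same library was the lowest of the preGM in both, above the WT HSC libraries in Tcp1 and below them in Cct3.
Cct2 had 706, 666 and 683 CPM in MLL-ENL preGM and 519, 332 and 597 in WT preGM, against 289, 273 and 311 in MLL-ENL HSC and 327, 352 and 325 in WT HSC.
Cct4 had 513, 464 and 473 CPM in MLL-ENL preGM and 325, 224 and 395 in WT preGM, against 302, 325 and 310.0 in MLL-ENL HSC and 308, 332 and 256 in WT HSC.
In these 7 genes all MLL-ENL preGM libraries exceeded all MLL-ENL HSC libraries. With MLL-ENL the rises were 1.96 ± 0.41 (SE, adjusted p = 0.00138) for Cct7, 1.93 ± 0.27 (SE, adjusted p = 5.6e-05) for Tcp1 and 1.77 ± 0.41 (SE, adjusted p = 0.00309) for Cct5.
Cct3, Cct8 and Cct2 rose by 1.76, 1.64 and 1.24, and Cct4 had 0.63 ± 0.26 (SE, adjusted p = 0.0586), which passed without WT preGM replicate 2 alone (adjusted p = 0.00876).
In WT cells Tcp1 rose by 1.27 ± 0.27 (SE, adjusted p = 0.00153), Cct7 by 1.22 ± 0.40 (SE, adjusted p = 0.0237) and Cct8 by 0.95 ± 0.34 (SE, adjusted p = 0.0358).
The WT calls of Cct7 and Cct8 were lost on leaving out 1 library in 5 and 8 of 12 cases (adjusted p 0.0519 to 0.115 and 0.0513 to 0.172), which were each WT HSC replicate, WT preGM replicates 1 and 3 and, for Cct8, each MLL-ENL HSC replicate. They were also lost with only the groups compared (adjusted p = 0.108 and 0.122) and with the replicate number as a block (0.05 and 0.0658).
With 10 libraries the WT difference was 1.32 ± 0.11 (SE, adjusted p = 2.61e-07) for Cct5, 1.65 ± 0.10 (SE, adjusted p = 2.73e-08) for Cct7 and 1.11 ± 0.12 (SE, adjusted p = 2.92e-06) for Cct3. WT preGM then held replicates 1 and 3 alone, and the replicate left out was the lowest of that group in these genes. These p-values therefore cannot decide whether the genes rise in WT preGM.
Leaving out WT preGM replicate 2 alone was enough for the calls of Cct5, Cct3 and Cct2 (adjusted p = 0.000229, 0.000558 and 0.00498), and leaving out MLL-ENL preGM replicate 1 alone for that of Cct3 (0.0447).
Cct6a, the somatic form of the subunit that Cct6b encodes in testis and no member here, rose by 1.63 ± 0.29 (SE, adjusted p = 0.000459) with MLL-ENL and 0.78 ± 0.29 (SE, adjusted p = 0.0434) in WT cells, where the call was lost without any 1 of 9 libraries (adjusted p 0.0528 to 0.161), all but MLL-ENL preGM replicates 1 and 2 and WT preGM replicate 2.

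Cct6b itself was at the edge of detection, with 0.621, 0.877 and 0.414 CPM in MLL-ENL preGM and 0.508, 2.42 and 1.08 in WT preGM, against 0.981, 1.19 and 0.849 in MLL-ENL HSC and 0 counts in all 3 WT HSC libraries.
The mean of WT preGM (1.34 CPM) was thus at least 8.22-fold above WT HSC, taking 3 counts per library as the floor (0.163 CPM). This bound leaves out the spread among the WT preGM libraries, of which replicate 2 was the highest. The comparison passed the test (adjusted p = 0.000209).
Most of its counts lay in the first 5 of 14 exons, 33, 22 and 15 against 0, 5 and 0 in exons 6 to 14 of MLL-ENL preGM, and 11, 52 and 31 against 6, 0 and 7 of WT preGM.

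**Figure D2:**
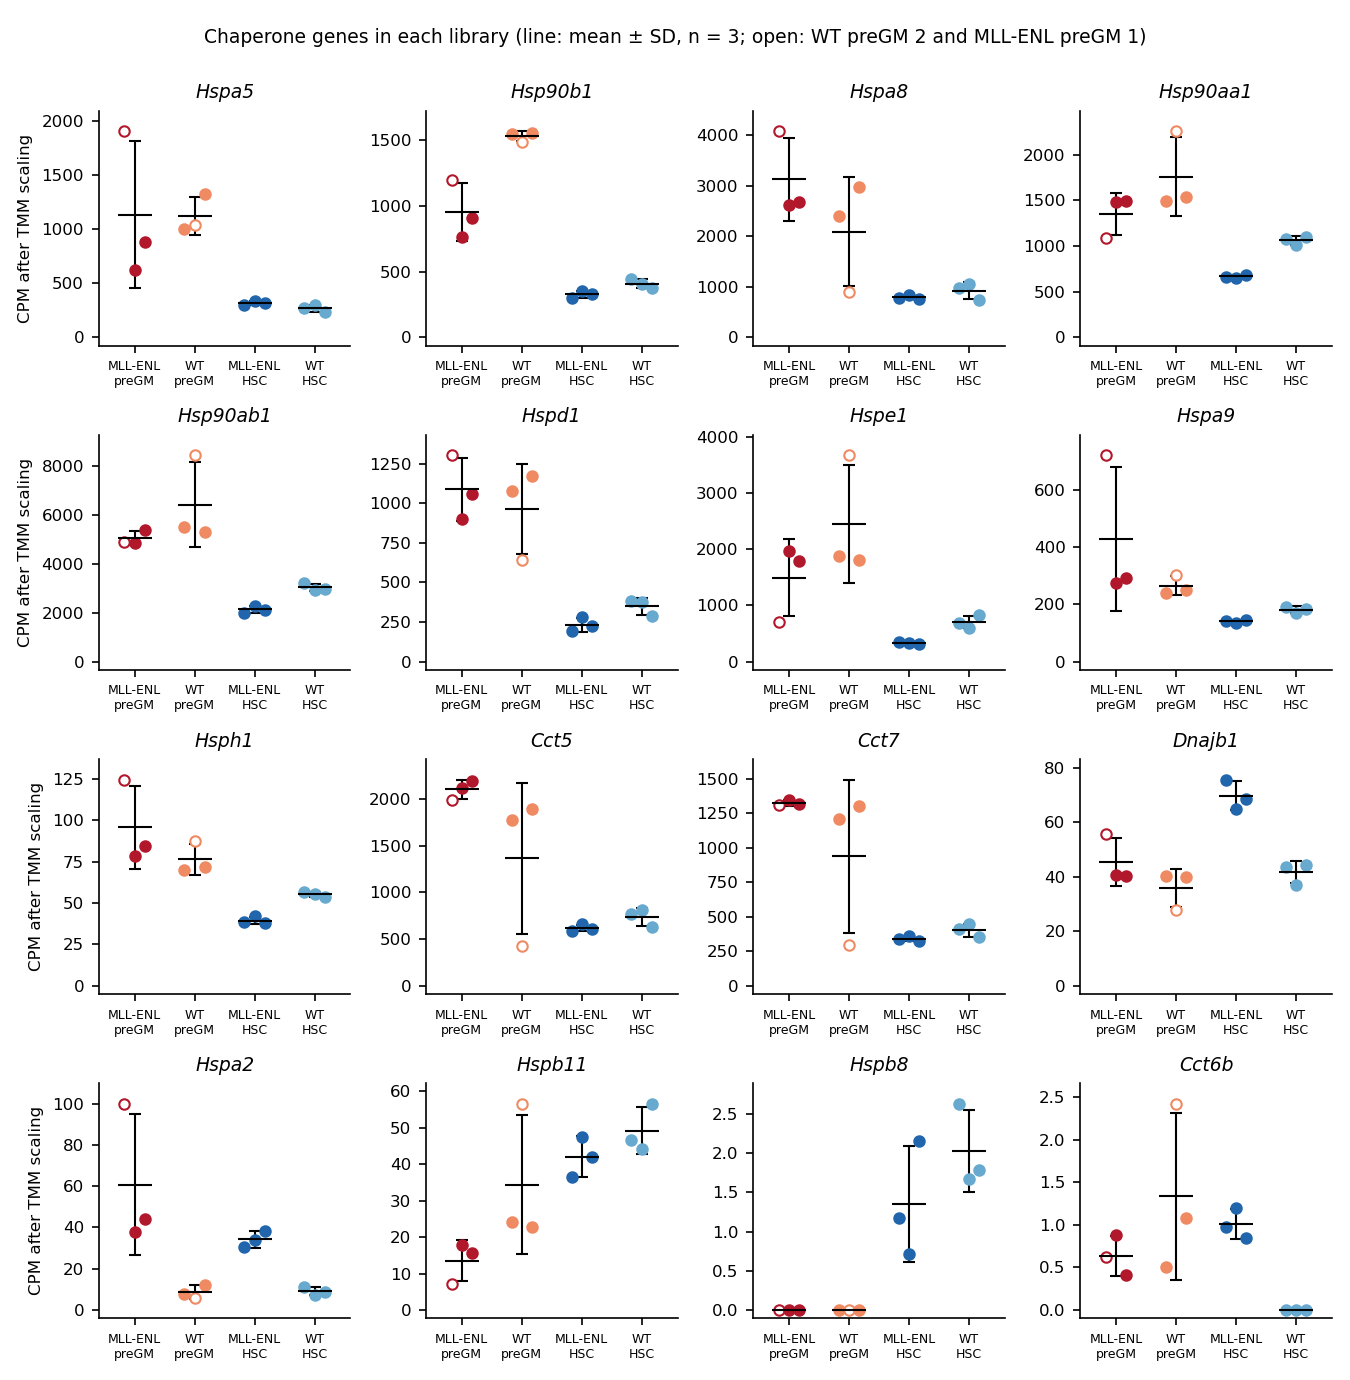
Levels (CPM after TMM scaling, linear axes from 0) of 16 members in each library by group, MLL-ENL preGM, WT preGM, MLL-ENL HSC and WT HSC from left to right; points are libraries, open points the 2 that stood apart, and lines the mean ± SD of 3 libraries. Hspd1, Hspe1 and Hsp90b1 lie higher in all preGM libraries than in the HSC libraries of the same strain, and Hspa2 is higher in both MLL-ENL groups than in the WT groups.

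Of the 4 tested genes grouped by symbol as small heat shock proteins, 2 fell with MLL-ENL (Hspb8 and Hspb11) and 1 fell in WT cells (Hspb8), and none rose.
Hspb8, which acts with Bag3 in the removal of misfolded proteins, had no count in any preGM library, against 1.17, 0.716 and 2.16 CPM in MLL-ENL HSC and 2.63, 1.68 and 1.78 in WT HSC.
MLL-ENL preGM was at least 17.1-fold below the mean of MLL-ENL HSC (adjusted p = 0.000103), and WT preGM at least 19.3-fold below the mean of WT HSC (adjusted p = 7.53e-05). The floor was 3 counts per library (0.0789 and 0.105 CPM).
Hspb11, known as the intraflagellar transport protein IFT25, had 7.13, 17.8 and 15.6 CPM in MLL-ENL preGM and 24, 56.5 and 22.7 in WT preGM, against 36.4, 47.6 and 42 in MLL-ENL HSC and 46.7, 44.3 and 56.5 in WT HSC.
It fell by 1.64 ± 0.37 (SE, adjusted p = 0.00238) with MLL-ENL.
In WT cells, where the groups overlapped through preGM replicate 2, the difference was -0.52 ± 0.36 (SE, adjusted p = 0.272) with 12 libraries and -1.07 ± 0.16 (SE, adjusted p = 9.97e-05) with 10.
Hspbap1, named for binding a small heat shock protein, had 12.3, 8.25 and 10.9 CPM in MLL-ENL preGM and 21.1, 5.87 and 18.6 in WT preGM, against 1.04, 4.06 and 1.95 in MLL-ENL HSC and 1.17, 6.34 and 2.34 in WT HSC.
Its WT groups overlapped.
Hspbap1 rose by 2.17 ± 0.59 (SE, adjusted p = 0.00828) with MLL-ENL and 2.19 ± 0.59 (SE, adjusted p = 0.00808) in WT cells.
Hspbp1, an HSP70 exchange factor, fell by 0.59 (adjusted p = 0.0403) with MLL-ENL, a call kept under 9 of 20 alternatives.
It was lost with no filter on low counts (adjusted p = 0.113), and without any 1 of 9 libraries (0.0513 to 0.141), all but MLL-ENL preGM replicates 1 and 2 and WT preGM replicate 2.

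J-domain genes were divided, and of the 4 Dnaja genes 3 rose and 1 fell with MLL-ENL, while 1 fell in WT cells.
Dnaja1, the main cytosolic partner of Hspa8, had 621, 691 and 698 CPM in MLL-ENL preGM and 539, 332 and 613 in WT preGM, against 280.4, 289.9 and 318 in MLL-ENL HSC and 357, 334 and 335 in WT HSC.
It rose with MLL-ENL, by 1.18 ± 0.26 (SE, adjusted p = 0.0024).
In WT cells, where replicate 2 of preGM was as low as the HSC, the difference was 0.53 ± 0.26 (SE, adjusted p = 0.119) with 12 libraries and 0.76 ± 0.10 (SE, adjusted p = 1.5e-05) with 10, and it passed without that replicate alone (adjusted p = 0.00471).
Dnajb1, the heat-inducible partner, had 55.6, 40.8 and 40.1 CPM in MLL-ENL preGM and 40.2, 27.8 and 39.8 in WT preGM, against 75.6, 65 and 68.6 in MLL-ENL HSC and 43.7, 37.1 and 44.4 in WT HSC.
MLL-ENL HSC were above all other libraries.
Dnajb1 fell by 0.62 ± 0.22 (SE, adjusted p = 0.0382) in MLL-ENL preGM relative to MLL-ENL HSC, and in WT cells the difference was -0.21 ± 0.23 (SE, adjusted p = 0.482).
The call was lost without any 1 of 8 libraries, namely MLL-ENL preGM replicate 2 or 3, replicate 1 of WT preGM, any of MLL-ENL HSC, or replicate 1 or 2 of WT HSC (adjusted p 0.0507 to 0.139). It was also lost with no filter on low counts (adjusted p = 0.0928).
Dnaja4, with 44.6% of its exon bases shared with other genes, had 0.583, 0.780 and 1.05 CPM in MLL-ENL preGM and 0.269, 0.605 and 0.427 in WT preGM, against 5.76, 4.50 and 3.32 in MLL-ENL HSC and 2.68, 2.81 and 0.492 in WT HSC.
Dnajb4, a cytosolic relative of Dnajb1, had 16.4, 10.5 and 10.4 CPM in MLL-ENL preGM and 7.47, 5.31 and 8.74 in WT preGM, against 26.7, 31.8 and 27.3 in MLL-ENL HSC and 19.3, 25.8 and 11.4 in WT HSC.
Dnajc28 had 3.89, 3.22 and 2.01 CPM in MLL-ENL preGM and 1.91, 1.58 and 2.70 in WT preGM, against 7.63, 8.64 and 7.50 in MLL-ENL HSC and 4.02, 7.47 and 5.66 in WT HSC.
These 3 genes were lower in every MLL-ENL preGM library than in any MLL-ENL HSC library, and in WT cells Dnaja4 alone overlapped. With MLL-ENL Dnaja4 fell by 2.49, Dnajb4 by 1.20 and Dnajc28 by 1.38 (adjusted p = 0.00243, 0.0053 and 0.00512).
In WT cells they fell by 2.23, 1.39 and 1.46 (adjusted p = 0.00749, 0.00229 and 0.00424).
Of the 25 tested Dnajc genes 7 rose and 2 fell with MLL-ENL, and 11 rose and 1 fell in WT cells. Among all genes tested 20.4% rose and 21.1% fell with MLL-ENL, and 18.4% rose and 20.1% fell in WT cells.
Of the 10 tested Dnajb genes 1 rose and 3 fell with MLL-ENL, and 3 rose and 1 fell in WT cells, Dnajb11, a partner of Hspa5 in the endoplasmic reticulum, being higher in both (by 1.19 and 1.39), with the MLL-ENL call lost under library size alone (adjusted p = 0.0733).

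**Figure D3:**
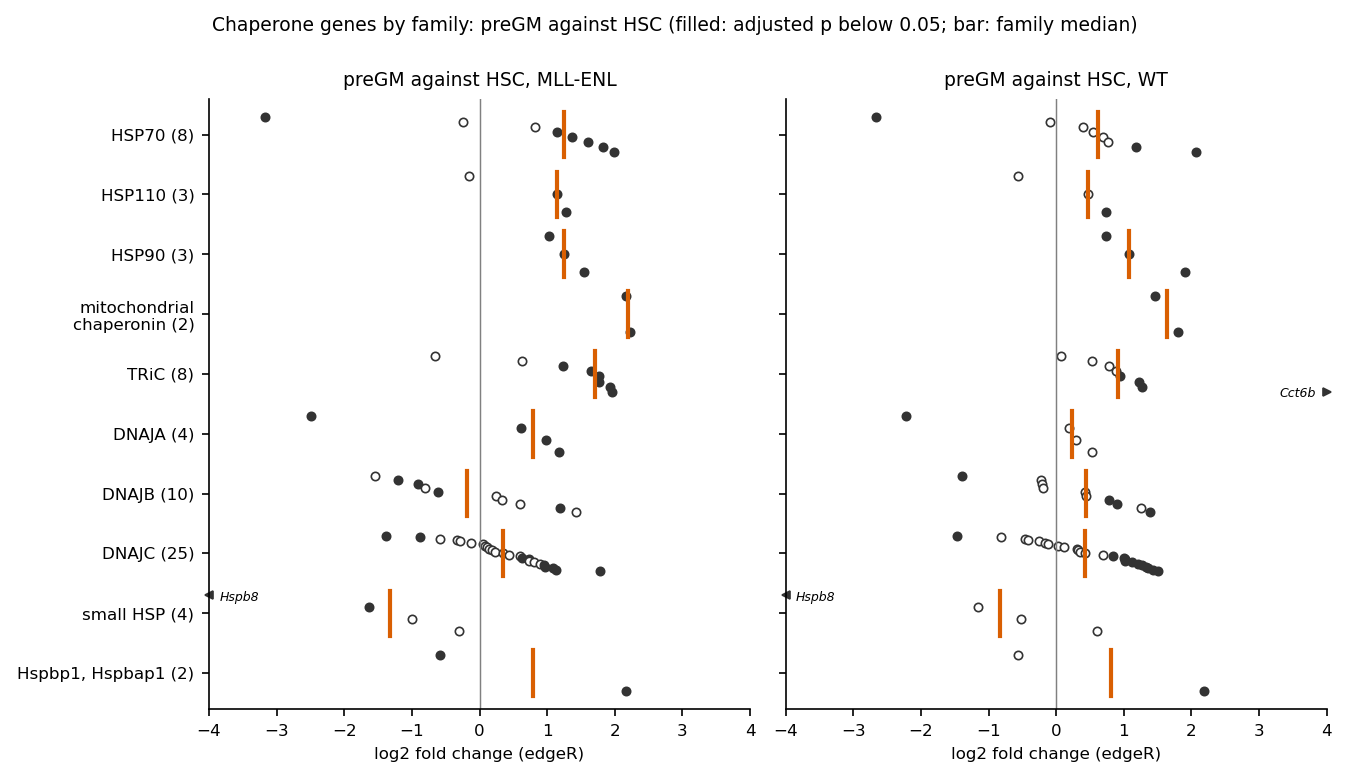
Log2 fold change of preGM against HSC for each tested member by family, with MLL-ENL and in WT cells; filled points have an adjusted p below 0.05, bars are family medians and triangles lie beyond the end of the axis. The points of the HSP90, mitochondrial chaperonin and TRiC families lie above 0 apart from Cct6b with MLL-ENL, and those of the J-domain families lie on both sides.

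By compartment, 5 of the 11 members of the endoplasmic reticulum rose and 2 fell with MLL-ENL, and 6 rose in WT cells. Beside this and the counts that follow, 20.4% of all genes tested rose and 21.1% fell with MLL-ENL. In WT cells 18.4% of all genes rose and 20.1% fell. The lists are short, and their counts were not tested against these shares.
Of the 9 mitochondrial members 6 rose and 1 fell with MLL-ENL, and 5 rose and 1 fell in WT cells.
Of the 9 tested genes of a 12-gene list named heat-inducible 7 rose and 2 fell with MLL-ENL, and 5 rose and 1 fell in WT cells. The 9 were Hspa8, Hsp90aa1, Hsp90ab1, Hspd1, Hspe1, Hsph1, Dnaja1, Dnajb1 and Dnajb4. Hspa8 and Hsp90ab1 among them are the constitutive forms given above. Hspa1a, Hspa1b and Hspb1 of the list were too low to be tested, and Dnajb1 and Dnajb4 were those that fell with MLL-ENL. The counts therefore do not show that heat-inducible genes rose as a class.
Among genes that are no members, 14 of 27 co-chaperones and heat shock factors rose and 1 fell with MLL-ENL, and 9 rose and 1 fell in WT cells, of which 1 changed sign under library size alone.
Grpel1, the exchange factor of Hspa9, averaged 479 ± 176 CPM in MLL-ENL preGM and 774 ± 138 in WT preGM, against 112 ± 5.74 in MLL-ENL HSC and 195 ± 22.9 in WT HSC (SD, n = 3 each).
Hyou1, an HSP110 relative in the endoplasmic reticulum, averaged 55.9 ± 30.7 CPM in MLL-ENL preGM and 45.4 ± 2.59 in WT preGM, against 12.1 ± 1.17 and 13.1 ± 0.789 in the HSC of these strains.
Grpel1 and Hyou1 rose by 2.1 and 2.21 with MLL-ENL and by 1.99 and 1.79 in WT cells, and over the longest transcript alone Hyou1 gave 3.43 and 3.42.
Serpinh1, the collagen chaperone HSP47, fell to 0.0523 ± 0.0748 CPM in MLL-ENL preGM and 0.0843 ± 0.0566 in WT preGM, against 3.66 ± 1.22 and 2.03 ± 0.162 in the HSC of these strains. Of the 6 prefoldin genes, whose complex hands clients to TRiC, 2 rose with MLL-ENL and 3 in WT cells, Pfdn4 by 1.64 and 2.20 and Pfdn6 by 1.44 and 1.48 in both, and Pfdn2 by 1.60 in WT cells.
Of 18 genes of endoplasmic reticulum folding and the unfolded protein response, 9 rose with MLL-ENL and 10 in WT cells.
The calcium-binding lectin chaperone Calr and the disulfide isomerases Pdia4 and Pdia6 rose by 2.18, 2.13 and 2.08 with MLL-ENL, and Manf, Sdf2l1 and Calr by 2.93, 2.82 and 2.23 in WT cells.

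Between strains few members passed the test in HSC in the fit of all 12 libraries.
MLL-ENL HSC had 3 members higher than WT HSC, or 4.35% of those tested, against 3.19% of all genes tested, and 1 lower, or 1.45%, against 0.936%. A fit of the HSC libraries alone called more, 7 higher and 11 lower of 68 members (26.5%, beside 17.7% of all genes tested).
Hspa2, an HSP70 known for its role in the meiosis of male germ cells, had 30.6, 33.7 and 38.5 CPM in MLL-ENL HSC, against 11.4, 7.47 and 8.92 in WT HSC.
The groups did not overlap, and Hspa2 rose by 1.89 ± 0.36 (SE, adjusted p = 0.00785), a call kept under all 20 alternatives.
Dnajc7, a J protein that binds both HSP70 and HSP90, had 164, 177 and 164 CPM in MLL-ENL HSC, against 97.6, 85.2 and 74.8 in WT HSC.
Dnajc2, a J protein of the ribosome, had 74.3, 81.7 and 97.7 CPM in MLL-ENL HSC, against 166, 146 and 153 in WT HSC.
In both genes the groups did not overlap.
Dnajc7 rose by 0.97 ± 0.25 (SE, adjusted p = 0.0424), and Dnajc2 fell by 0.87 ± 0.23 (SE, adjusted p = 0.0429).
Both calls were lost on leaving out any 1 of 10 libraries, all but MLL-ENL preGM replicate 1 and WT preGM replicate 2 (adjusted p 0.0506 to 0.146 for Dnajc7 and 0.0531 to 0.194 for Dnajc2). The replicate number as a block ended both too (adjusted p = 0.0695 and 0.0725). Dnajc2 was also lost under library size alone (adjusted p = 0.0773) and with no filter on low counts (0.0869). Both were kept with DESeq2, with only the groups compared and with the 10 libraries.
The mean of Cct6b, given above, was at least 6.2-fold higher in MLL-ENL HSC than in WT HSC, against the same floor (adjusted p = 0.00418).
Its counts in MLL-ENL HSC lay in exons 1 to 5 (16, 30 and 24) more than in exons 6 to 14 (15, 0 and 0). The HSP90 genes and the mitochondrial chaperonin were lower in all MLL-ENL HSC than in all WT HSC libraries, and none of these 5 genes passed the test with 12 libraries.
The 3 HSP90 genes summed to 2960 to 3295 CPM in MLL-ENL HSC, against 4348 to 4736 in WT HSC, and Hspd1 with Hspe1 to 534 to 612, against 978 to 1110.3 CPM.
All 12 libraries gave -1.09 ± 0.38 (SE, adjusted p = 0.126) for Hspe1, -0.67 ± 0.27 (SE, adjusted p = 0.188) for Hsp90aa1, -0.51 ± 0.28 (SE, adjusted p = 0.356) for Hsp90ab1 and -0.58 ± 0.29 (SE, adjusted p = 0.311) for Hspd1.
With the 10 libraries, in which the same 6 HSC libraries are compared, these were -1.09 ± 0.11 (SE, adjusted p = 2.31e-05), -0.67 ± 0.08 (SE, adjusted p = 6.28e-05), -0.51 ± 0.08 (SE, adjusted p = 0.000766) and -0.58 ± 0.14 (SE, adjusted p = 0.0104).
That fit called 10 members higher and 16 lower of 70, or 14.3% and 22.9%, beside 10.3% and 11.1% of all genes tested.
Its lower calls took in all 3 HSP90 genes, both genes of the mitochondrial chaperonin, Hsph1 and Hspa4, and 5 of the 9 mitochondrial members.
Its higher calls took in 4 of 11 Dnajb genes, among them Dnajb1, which with 12 libraries had 0.74 ± 0.23 (SE, adjusted p = 0.0789).
Leaving out MLL-ENL preGM replicate 1 alone was enough for the calls of Hspe1 (adjusted p = 0.0257) and Dnajb1 (0.0227), and leaving out WT preGM replicate 2 alone for that of Dnajb1 (0.0254).
In 17 members all MLL-ENL HSC libraries were above all WT HSC libraries and in 16 all were below (24.6% and 23.2%, beside 17.8% and 17% of all genes tested). Of the remaining core members, Hspa5 differed by 0.25, Hspa8 by -0.22, Hspa9 by -0.37, Hsp90b1 by -0.32, Hsph1 by -0.49 and Dnaja1 by -0.21, and Tcp1, Cct2 to Cct5, Cct7 and Cct8 by -0.29 to 0.06, none passing with 12 libraries.
The direction of Hsph1 reversed when its longest transcript alone was counted (0.74, adjusted p = 0.472).
Markers differed between strains in the same libraries: 8 megakaryocyte and erythroid markers, each with counts in both groups, summed to 88.7 to 131 CPM in MLL-ENL HSC, against 495 to 618 in WT HSC, a gap that came from Pf4, as the other 7 summed to 57.9 to 65.2, against 53.5 to 73.3 CPM.
The summed HSC markers, given above, were higher in MLL-ENL HSC, with 5 of the 8 higher and 3 lower in mean level.
Counts in introns were 4.79 to 5.95 per 100 gene counts in MLL-ENL HSC, against 3.71 to 4.10 in WT HSC.
The part of these in the results was not tested.

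**Figure D4:**
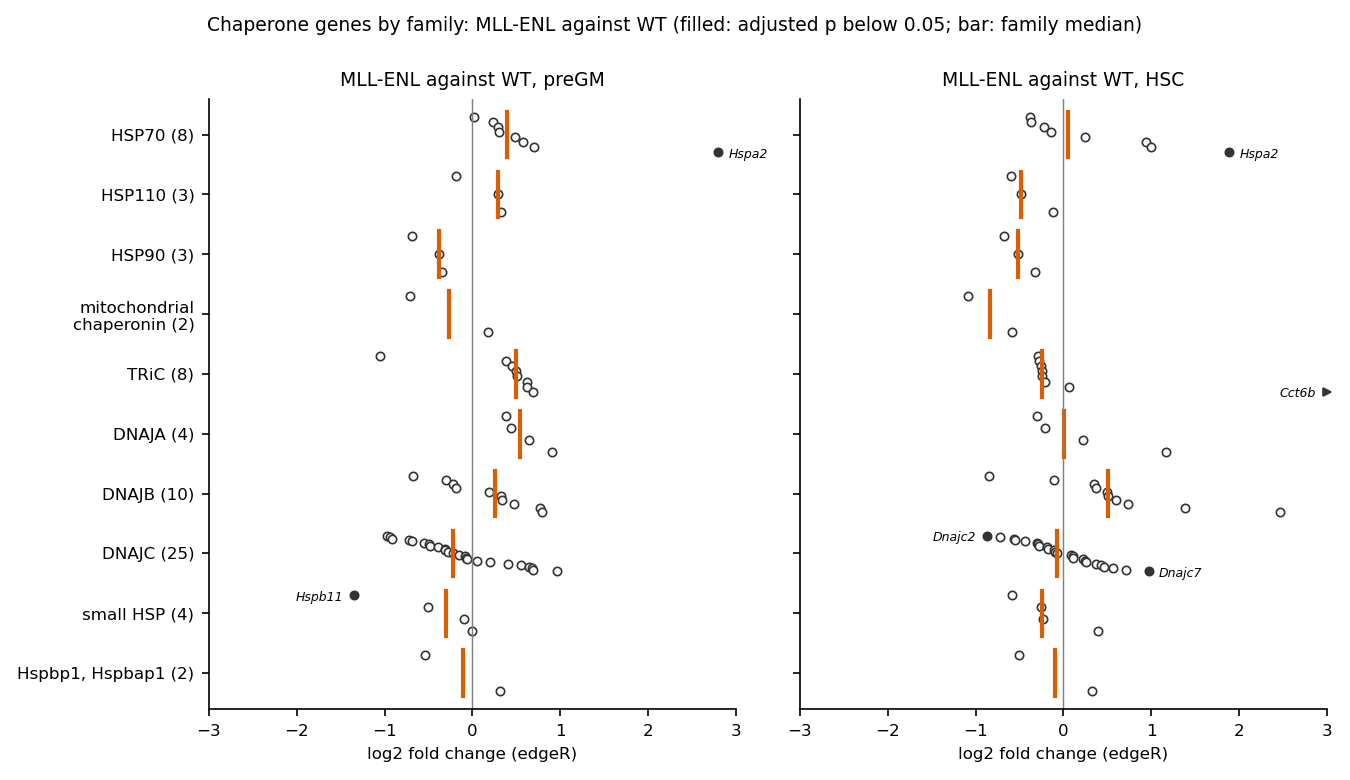
Log2 fold change of MLL-ENL against WT for each tested member by family, in preGM and in HSC; filled points have an adjusted p below 0.05, bars are family medians and triangles lie beyond the end of the axis. Hspa2 is filled and above 0 in both cell types, and the open points of the HSP90 and mitochondrial chaperonin families lie below 0 in HSC.

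In preGM 1 member was higher and 1 lower with MLL-ENL, or 1.45% each, against 3.7% and 3.07% of all genes tested.
Hspa2 had 99.8, 37.7 and 44.2 CPM in MLL-ENL preGM, against 7.97, 5.73 and 12.3 in WT preGM.
Every MLL-ENL library was at least 3-fold above every WT library, and replicate 1 was the highest.
Hspa2 rose by 2.80 ± 0.37 (SE, adjusted p = 0.000218) with 12 libraries and 2.01 ± 0.24 (SE, adjusted p = 0.000135) with 10, and the call was kept under all 20 alternatives.
It was thus the 1 member called higher with MLL-ENL in both cell types, and the difference between its 2 responses was 0.91 ± 0.50 (SE, adjusted p = 0.39).
Hspb11 had 7.13, 17.8 and 15.6 CPM in MLL-ENL preGM, against 24, 56.5 and 22.7 in WT preGM.
The groups did not overlap, and the 2 libraries that stood apart were their extremes, MLL-ENL replicate 1 being the lowest and WT replicate 2 the highest.
Hspb11 fell by 1.35 ± 0.36 (SE, adjusted p = 0.0351), and with 10 libraries the difference was -0.48 ± 0.18 (SE, adjusted p = 0.139).
The call was also lost without 1 library in 6 cases: replicate 1 or 3 of MLL-ENL preGM, replicate 2 of WT preGM, or any of MLL-ENL HSC (adjusted p 0.0511 to 0.192). It was lost too with only the groups compared (adjusted p = 0.133), under library size alone (0.0591) and over the longest transcript alone (0.0511). Values of Hsp90b1 and Hspa5, both of the endoplasmic reticulum, moved with MLL-ENL preGM replicate 1.
Hsp90b1, with the per-library values given above, was lower in all MLL-ENL preGM than in all WT preGM libraries, with -0.68 ± 0.26 (SE, adjusted p = 0.126) over 12 libraries, -0.90 ± 0.12 (SE, adjusted p = 0.000311) over 10 and an adjusted p of 0.0192 without that replicate alone.
Hspa5 overlapped between strains through that replicate, with 0.02 ± 0.34 (SE, adjusted p = 0.987) over 12 libraries and -0.64 ± 0.17 (SE, adjusted p = 0.0332) over 10, where the direction reversed.
With 10 libraries Dnajb6 and Dnajc7 were lower too, so that 1 member was higher and 4 were lower of 70 (1.43% and 5.71%, beside 3.52% and 3.62% of all genes).
Manf, an endoplasmic reticulum protein induced by the unfolded protein response and no member, fell to 331, 455 and 400.2 CPM in MLL-ENL preGM, against 1104, 1083 and 962 in WT preGM, by 1.41 ± 0.25 (SE, adjusted p = 0.00216), and was the 1 gene of that list of 18 to pass.
Its call was lost with only the groups compared (adjusted p = 0.0614).
TRiC genes lay higher in MLL-ENL preGM without passing: 6 of 8 had all MLL-ENL libraries above all WT libraries, and the 8 genes summed to 7776 to 7963 CPM in MLL-ENL preGM, against 2610.2 to 7249.6 in WT preGM, where replicate 2 was the lowest. With 12 libraries the differences of the TRiC genes other than Cct6b were 0.39 to 0.69, and with 10 they were 0.05 to 0.38, Cct4 having the smallest adjusted p of them in both (0.162 and 0.111).
Hspa8 differed by 0.58, Hspa9 by 0.70, Hsp90aa1 by -0.38, Hsp90ab1 by -0.34, Hspd1 by 0.17, Hspe1 by -0.72, Hsph1 by 0.33 (1.01 with its longest transcript alone), Dnaja1 by 0.44, Dnajb1 by 0.34 and Cct6b by -1.05, none passing.
Among members, all MLL-ENL preGM libraries were above all WT preGM libraries in 14 and below in 9 (20.3% and 13%, beside 15% and 12.8% of all genes tested).
Neutrophil markers, 6 genes with counts in both groups, summed to 6.57 to 17 CPM in MLL-ENL preGM, against 3365 to 5265 in WT preGM, and 6 mast cell and basophil markers summed to 187 to 287, against 1572 to 2510 CPM.
Their part in these results was not tested.

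The response to MLL-ENL differed between preGM and HSC in 1 member by edgeR with all 12 libraries, Cct6b, or 1.45% of those tested, against 2.06% of all genes tested called lower and 1.08% called higher.
The response of Cct6b was -1.05 ± 0.64 (SE, adjusted p = 0.333) in preGM. In HSC, with WT HSC at 0 counts, it was a fold change in mean of at least 6.2. The difference had an adjusted p of 0.00461.
No member was called with a higher response in preGM, while 4 were higher and 6 lower at an unadjusted p below 0.05, beside 7.79% and 8.46% of all genes tested.
DESeq2 called 0 higher and 3 lower, beside 2.45% and 4.13% of the genes to which it gave an adjusted p.
With 10 libraries 12 members had a higher response in preGM and 8 a lower one (17.1% and 11.4% of 70, beside 6.74% and 5.45% of all genes).
The higher ones were Hspa9, Hspa4, Hsph1, Hsp90aa1, Hsp90ab1, Hspe1, Cct2, Cct3, Dnaja1, Dnajc15, Dnajc2 and Dnajc8, and the lower ones Hspa5, Hsp90b1, Cct6b, Dnajb1, Dnajb6, Dnajc12, Dnajc24 and Dnajc7.
Over the 10 libraries Hspe1 had a difference of responses of 1.12 ± 0.17 (SE, adjusted p = 0.000743), Hsp90aa1 of 0.64 ± 0.12 (SE, adjusted p = 0.00322), Hspa5 of -0.88 ± 0.21 (SE, adjusted p = 0.0165) and Dnajc7 of -1.46 ± 0.17 (SE, adjusted p = 9.62e-05).
Leaving out WT HSC replicate 1 or WT preGM replicate 2 alone gave 2 members with a lower response in place of 1.
With all 12 libraries the values of these 4 genes were 0.37 ± 0.53 (SE, adjusted p = 0.796), 0.29 ± 0.38 (SE, adjusted p = 0.771), -0.23 ± 0.49 (SE, adjusted p = 0.875) and -1.25 ± 0.36 (SE, adjusted p = 0.0725).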

How the data were processed

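RNA from 12 sorted and cultured populations was sequenced, 3 libraries in each of 4 groups, after amplification with the SMARTer universal low input kit per the labels' protocols. The deposited tables give, for each exon, intron and spliced transcript, a raw read count, and an RPKM that the authors had divided by length and library size. TopHat2 2.0.8, Bowtie2 2.1.0, HTSeq and edgeR are named in the submitters' processing notes, and the build, the counting settings and the treatment of reads that match several places are not given in the sources used here. Counts were used as deposited, and RPKM only to check the file structure. Transcript IDs were matched to GENCODE M21 (95.8% of 93615 transcripts), and the exons of each gene, overlaps taken once, were summed without strand, so a gene and an overlapping partner cannot be told apart.

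Genes passing edgeR's filterByExpr (minimum count 10, minimum total 15) were fitted with edgeR 4.0.16 in R 4.3.3 over all 12 libraries (TMM scaling, robust quasi-likelihood test, 2-sided), and the SE was taken as the absolute log2 change divided by the root of F. Alternatives were DESeq2 1.42.0, library size alone, no filter, the groups compared only, the replicate number as a block, the longest transcript, and leaving out libraries. The pipeline was tested on simulated data. Genes given by library were those called between strains, the 5 largest calls in each direction between cell types and a core set of abundant chaperones, and the other genes named were chosen after their values were seen. Members, lists and the 2 libraries set apart were chosen with earlier results of these data known. RNA counts carry no molecular identifiers, so floors cover counting error only.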

Additional observations from a re-analysis of the deposited data

Results flagged for a closer look

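The response of Cct6b to MLL-ENL differed between preGM and HSC by -8.94 on the log2 scale (preGM minus HSC, edgeR adjusted p = 0.00461). The size of this fitted value depends on a prior count, because all 3 WT HSC libraries had 0 counts, and it is no bound. In MLL-ENL HSC the gene had 0.981, 1.19 and 0.849 CPM, and most of its counts lay in its first 5 exons. The difference passed under all 18 alternatives run for it (DESeq2, other scaling, filters and gene counting, the replicate block, and each left-out library). The cause was not tested.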

How the results depend on the processing

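The number of members called in MLL-ENL against WT HSC was 4 (4.13% of all genes tested were called), and it was 8 with DESeq2 (8% of all genes), 18 with only the groups compared (17.7%) and 26 without the 2 libraries that stood apart (21.3%). Making both of these changes was a choice added after seeing the data. In HSC it is the same fit as only the groups compared, since both libraries are preGM, and so adds nothing there. In preGM it was 2 between strains (6.77%), 7 with DESeq2 (11.6%), 1 with library size alone (7.51%), only the groups compared (5.18%) or the longest transcript (6.37%), 5 without the 2 libraries (7.14%), and 15 with the added choice (22.2%). The difference of responses had 1 member called (3.13%), 3 with DESeq2 (6.58%) and 20 without the 2 libraries (12.2%). For preGM against HSC it was 40 with MLL-ENL, where no alternative moved it by over 1.5 times, and 32 in WT cells, or 49 without the 2 libraries (38.5% and 50.9% of all genes). Leaving out each library in turn gave 2 to 6 members for MLL-ENL against WT in HSC, 1 to 3 in preGM, 1 to 2 for the difference of responses, and 33 to 43 with MLL-ENL and 26 to 41 in WT cells for preGM against HSC. Counts of 2 in HSC arose without any 1 of 9 libraries, all but WT HSC replicate 1 and the 2 that stood apart.

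The replicate numbers did not pair the libraries (correlations of same-numbered libraries -0.10 to 0.10, 1 of 12 best with its own number), and with the replicate block 3 members were called for MLL-ENL against WT in HSC, 2 in preGM, 1 for the difference of responses, and 36 with MLL-ENL and 29 in WT cells for preGM against HSC. The 112 values of single genes were each recomputed under the alternatives. Of these recomputed values 75 gained a call, 90 lost it, 2035 did neither, and 1 reversed with a call, Hspa5 in MLL-ENL against WT preGM, to -0.64 without the 2 libraries. Depth limits the low members: in HSC a count of 0 allows 0.107 to 0.163 CPM, so Hspa1a, with 0 counts in all 6 HSC libraries, could not be measured there. The causes of these changes were not tested.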
